A study of Mus musculus with 13 samples.

Results

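Polycomb repressive complex 2 (PRC2) was followed here through the transcripts of its own subunits. The 10 genes were chosen by name as the core and accessory subunits of the complex: Eed, Ezh2, Ezh1, Suz12, Rbbp4, Rbbp7, Jarid2, Aebp2, Mtf2 and Phf19. They are 10 of the 25183 genes listed in either deposited count table, and all 10 are among the 21420 listed in both tables and passed the filter on low counts in every comparison.

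The libraries are 13 bulk RNA-seq samples of mouse small intestine. The 9 crypt libraries came from mice of a mixed C57BL/6-FVB background that were 6 weeks old at the start of 6 weeks of beta-naphthoflavone, and they are wild type (WT, n = 3), Eed-/- (Eed KO, n = 3) and Ezh2-/- (Ezh2 KO, n = 3). The 4 organoid libraries, epithelial cultures grown from crypts and given beta-naphthoflavone for 10 days, are WT on an FVB background (n = 2) and Eed KO on C57BL/6-FVB (n = 2). Beta-naphthoflavone was given to every group, WT included, and induces AhCre, a Cre recombinase under the Cyp1a1 promoter that recombines floxed alleles (Eed f/f or Ezh2 f/f) in intestinal epithelium. The labels name AhCre for the WT and knockout organoids and for all crypts of run 440, WT included, but not for the crypts of run 385. Other cells in the crypt preparation keep their alleles where the promoter is silent. Fewer cells of a type and less RNA per cell cannot be told apart in these bulk samples. Libraries are named by sequencing run and title number, as in 385_1.

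PRC2 places methyl groups on lysine 27 of histone H3, a mark of silenced developmental genes. EZH2 or its paralog EZH1 is the catalytic subunit, EED reads the mark and holds the enzyme in its active form, SUZ12 is the scaffold, and RBBP4 and RBBP7 bind histones. Accessory subunits sort the complex into PRC2.1, which carries a Polycomb-like protein such as MTF2 or PHF19, and PRC2.2, which carries JARID2 and AEBP2. In the intestine the complex is known for its part in keeping crypt progenitors dividing, and EZH2 is best known from dividing cells, while EZH1 is also found in resting ones.

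Depth was 11421666 to 18300644 counts per library. Run 440 was the run of every Ezh2 KO crypt and of 1 crypt library each of WT and Eed KO, and the other 8 libraries, organoids included, came from run 385. Eed KO 440_1 stood apart. In that library the deviation of a gene from its mean over all libraries followed the GC content of its transcript (Spearman's rho 0.64 across 11344 genes, which are not independent replicates, against -0.35 to 0.41 in the other 12 libraries). In it, genes with a GC content up to 44.9% had a median deviation of -0.87 log2 and genes from 54.3% upwards one of 0.39. WT crypts of run 385 and Eed KO organoids had Ddx3y, which is Y-linked, and at most 2.585 CPM of Xist (counts scaled to library size), and the other libraries had at least 324.8. Sex pattern and genotype cannot be told apart in run 385. In run 440, where all libraries have the female pattern, the Eed KO to WT ratio was -1.62 log2 for Eed, -1.12 for Ezh2 and -0.63 for Jarid2. These ratios rest on 1 library of each group, and the Eed KO library is 440_1, with the GC trend. Transcript GC content is 47.8% for Eed, 44.4% for Ezh2 and 48.8% for Jarid2. Ezh2 is thus among the genes up to 44.9%, whose median deviation was -0.87 in Eed KO 440_1 and -0.13 in WT 440_1. The 8 epithelial markers (Epcam, Cdh1, Cdx2 and others) were present in all libraries. They summed to 7205, 6196 and 7862 CPM in WT crypts, 4868, 4446 and 8479 CPM in Eed KO crypts, 7487 to 8524 in Ezh2 KO crypts and 6461 to 7572 in organoids. The Eed KO crypts of run 385 were the lowest of the series, and 3 of the 8 markers were called lower in Eed KO crypts. The 10 immune markers summed to 350.3 to 1487 CPM in crypts and at most 3.03 CPM in organoids, where Tyrobp and Cd3e were at 0.

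The upstream sequences of 4 members are shown because Ezh2, Suz12 and Phf19 hold letters that E2F factors bind and Ezh1, the paralog of Ezh2, does not. E2F factors regulate genes of the cell cycle, some as activators and some as repressors. Each window runs from 250 bases before the RefSeq start to 30 bases after it in GRCm38.p6, is written 5′ to 3′ along the gene, and has the matching letters in capitals (TTTCCCGC, TTTCGCGC, TTTGCCGC or TTTGGCGC, on either strand).
Ezh2, chr6:47595001-47595280, minus strand: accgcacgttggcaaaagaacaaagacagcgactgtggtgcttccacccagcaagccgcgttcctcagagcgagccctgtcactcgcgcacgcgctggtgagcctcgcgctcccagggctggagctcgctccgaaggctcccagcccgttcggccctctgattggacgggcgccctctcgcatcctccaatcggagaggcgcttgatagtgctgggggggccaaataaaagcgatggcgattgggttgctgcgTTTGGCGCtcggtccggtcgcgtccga
Suz12, chr11:79992856-79993135, plus strand: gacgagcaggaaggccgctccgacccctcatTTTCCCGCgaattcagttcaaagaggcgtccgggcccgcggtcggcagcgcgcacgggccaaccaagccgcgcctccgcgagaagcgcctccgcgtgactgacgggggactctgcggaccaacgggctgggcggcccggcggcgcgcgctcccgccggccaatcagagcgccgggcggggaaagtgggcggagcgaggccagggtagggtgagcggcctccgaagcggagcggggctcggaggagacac
Phf19, chr2:34913947-34914226, minus strand: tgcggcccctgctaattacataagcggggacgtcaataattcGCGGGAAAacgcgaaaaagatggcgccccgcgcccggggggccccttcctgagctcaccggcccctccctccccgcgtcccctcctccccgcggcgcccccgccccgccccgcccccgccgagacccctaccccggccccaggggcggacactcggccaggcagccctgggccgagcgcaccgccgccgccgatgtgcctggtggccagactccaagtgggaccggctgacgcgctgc
Ezh1, chr11:101226434-101226713, minus strand: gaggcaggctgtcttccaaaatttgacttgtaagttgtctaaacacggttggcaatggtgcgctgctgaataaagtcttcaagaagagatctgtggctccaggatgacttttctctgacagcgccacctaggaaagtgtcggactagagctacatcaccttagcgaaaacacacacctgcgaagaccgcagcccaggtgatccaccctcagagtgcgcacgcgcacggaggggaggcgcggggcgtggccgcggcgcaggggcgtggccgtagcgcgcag
The Ezh2 window holds TTTGGCGC at bases 4 to 11 after the start. The Suz12 window holds TTTCCCGC at -219 to -212, and the Phf19 window holds the same letters on the opposite strand at -208 to -201. The Ezh1 window holds none of them, nor do those of Eed, Rbbp4, Rbbp7, Jarid2, Aebp2 and Mtf2. Thus 3 of the 14 windows of the 10 genes (21.4%) held a match, against 696 of 32851 windows of all genes (2.12%) and 9 of 31 windows of a list of dividing-cell genes (29%). The CCAAT box, searched as CCAAT on both strands, was in 9 of the 14 windows (64.3%) and in 36.1% of all windows. Such matches are letters in a window and do not show binding.

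Levels can be compared between genes only per length, so CPM were divided by kilobases of the union of exons in GENCODE M21. In WT crypts Rbbp7 was the most abundant member, at 91.4 ± 7.25 CPM per kilobase (SD, n = 3), and Phf19 the least, at 1.09 ± 0.303. Between them came Suz12 (28.9 ± 5.71) and Rbbp4 (26.7 ± 1.72), whose libraries overlapped, and then Eed (14.2 ± 1.38) and Ezh2 (12.9 ± 1.83), whose libraries also overlapped. Jarid2 (8.41 ± 0.943), Mtf2 (7.93 ± 1.23), Ezh1 (7.75 ± 0.527) and Aebp2 (7.72 ± 1.85) followed, with no neighbouring pair among these 4 separated. The order in the middle depends on the length used. Per kilobase of the longest transcript, Rbbp4 (50.01 ± 3.21) lay above Suz12 (32.7 ± 6.45) without overlap, Ezh1 (13.7 ± 0.934) came sixth and Jarid2 (9.78 ± 1.10) ninth, with Rbbp7 still first and Phf19 last. WT organoids kept Rbbp7, Suz12, Rbbp4, Eed and Ezh2 in the same first 5 places, with 112.5 ± 1.26 CPM per kilobase of Rbbp7 and 1.10 ± 0.540 of Phf19 (n = 2).

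**Figure D1:**
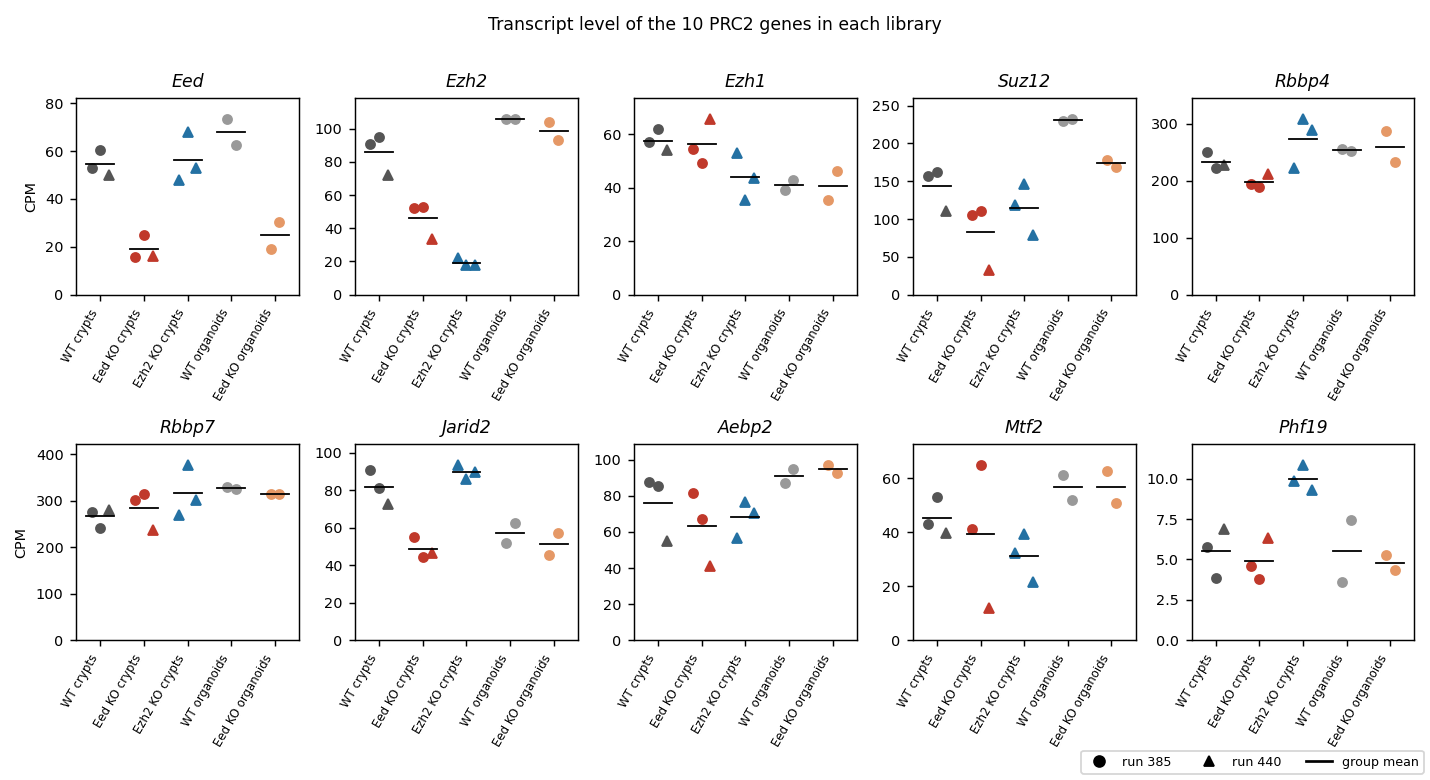
Transcript level of each PRC2 gene in CPM (linear axis from 0, own scale for each gene) in all 13 libraries, with circles for run 385, triangles for run 440 and bars for group means. Eed is low in both Eed KO groups, Ezh2 is low in Eed KO and lowest in Ezh2 KO crypts but not in Eed KO organoids, and Suz12 and Mtf2 have their lowest points (32.02 and 11.93 CPM) in Eed KO 440_1.

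The targeted genes came first as a check of the labels. Eed (ENSMUSG00000030619, chr7:89954656-89980983, minus strand, GRCm38) had 53.1, 60.3 and 50.1 CPM in WT crypts 385_1, 385_2 and 440_1 and 15.93, 25.04 and 16.27 CPM in the matching Eed KO crypts. All 3 Eed KO crypts lay below all WT crypts, and at 28.1%, 44.1% and 32.5% of the WT level of their run. Ezh2 KO crypts held 48.0, 67.9 and 53.0 CPM of Eed, which overlaps the WT range. In organoids Eed was at 73.5 and 62.4 CPM in WT and 19.2 and 30.5 CPM in Eed KO, that is 28.3% and 44.9% of the WT mean. The fitted log2 fold change was -1.52 ± 0.21 (SE) in crypts (edgeR's quasi-likelihood test, adjusted p = 0.00133) and -1.45 ± 0.23 in organoids (edgeR, adjusted p = 0.00699). These fold changes differed by -0.07 ± 0.34 between the tissues (edgeR interaction term, adjusted p = 0.97). Eed counts cover the whole gene, so reads from exons that were not deleted and reads from cells that kept the gene are counted together.

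Ezh2 (ENSMUSG00000029687, chr6:47530274-47595341, minus strand), the catalytic subunit, had 21.80, 17.70 and 17.97 CPM in the 3 Ezh2 KO crypts against 90.8, 95.3 and 72.2 CPM in WT crypts. All Ezh2 KO libraries lay below every other library of the series, and held 30.2%, 24.5% and 24.9% of the WT library of their run. The log2 fold change was -1.82 ± 0.17 (edgeR, adjusted p = 0.0148). This was the only member called in Ezh2 KO crypts, in a comparison in which 0.0208% of 14406 genes were called in either direction, 8.18% (1179 genes) passed at an unadjusted p of 0.05 and 0.472% (68 genes) were called by DESeq2. Leaving out library 440_2 or 440_3 of Ezh2 KO, or WT 385_2, ended the call (edgeR, adjusted p = 0.0622, 0.176 and 0.0894), with log2 fold changes of -1.79, -1.78 and -1.83.

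Loss of Eed went with lower transcript of 4 of the 10 members in crypts, Eed itself among them, and higher transcript of none. The others were Ezh2, Jarid2 and Suz12. Eed is the deleted gene, so its decrease came with the design. Of the 14406 genes tested, 10.6% were called lower and 24% in either direction. The median log2 fold change of the 10 members, Eed included, was -0.37, and that of all genes -0.04. The 4 genes encode the reader of the mark, the enzyme, a PRC2.2 subunit and the scaffold. Markers of 3 crypt cell types were low in the same libraries. The 8 markers of crypt base stem cells summed to 833 to 1326 CPM in Eed KO against 4562 to 4752 in WT (4 of 8 called lower, median log2 fold change -0.92). The 6 Paneth cell markers summed to 9506 to 15070 against 59590 to 90310 CPM (3 of 6 lower, median -2.43), and of 6 enteroendocrine markers 4 were lower and 1 higher. Calls in other cell types differed from these. Of 6 goblet markers 1 was higher and 1 lower (median 0.09), and of 10 immune markers 3 were higher and 1 lower (median 0.82). The sum of the immune markers went the other way, at 350.3 to 559.8 CPM in Eed KO against 562.7 to 1461 in WT. No tuft cell marker (median 0.93) and no enterocyte marker (median -1.18) was called. The part of cell composition in the lower PRC2 transcripts was not tested. Without Eed KO 440_1, 3 members were called, with Suz12 lost.

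Ezh2 was at 52.1, 53.0 and 33.3 CPM in Eed KO crypts, which is 56%, 57% and 46.1% of the WT level of their run. The Eed KO libraries did not overlap with WT. Neither did those of Rbbp4, which was not called, and the share of all genes without overlap is not given for this comparison. The log2 ratio was -0.82 in run 385 and -1.12 in run 440, where the only Eed KO library is 440_1, with the GC trend. Transcript GC content of Ezh2 is 44.4%. The call was kept in 15 of 16 alternatives and lost in run 440 alone, with 1 library each of WT and Eed KO. The fit gave a log2 fold change of -0.92 ± 0.14 (edgeR, adjusted p = 0.00212), and -0.76 ± 0.14 when each library was corrected for its GC trend (edgeR, adjusted p = 0.00351). Set directly against each other, Eed KO crypts held more Ezh2 than Ezh2 KO crypts by 0.91 ± 0.17 log2 (edgeR, adjusted p = 0.00782), so the decrease in Eed KO was the smaller.

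Jarid2 (ENSMUSG00000038518, chr13:44729474-44921643, plus strand) encodes a DNA-binding cofactor that helps bring PRC2.2 to chromatin and stimulates it. It had 91.0, 81.5 and 72.6 CPM in WT crypts and 55.0, 44.5 and 46.8 CPM in Eed KO crypts. These groups did not overlap, as was so for Rbbp4, which was not called. Ezh2 KO crypts, at 93.7, 86.4 and 89.8 CPM, overlapped the upper end of the WT range. Its log2 fold change in Eed KO was -0.73 ± 0.14 (edgeR, adjusted p = 0.00509), a call kept in 14 of 16 alternatives and lost in run 440 alone (-0.51, edgeR, adjusted p = 0.195), and -0.99 ± 0.17 against Ezh2 KO (edgeR, adjusted p = 0.00523). In Ezh2 KO against WT it was 0.25 ± 0.17 and not called (edgeR, adjusted p = 0.691).

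Suz12 (ENSMUSG00000017548, chr11:79993106-80034123, plus strand), the scaffold, had 157.1, 161.7 and 110.7 CPM in WT crypts and 105.9, 111.1 and 32.02 CPM in Eed KO crypts. Each Eed KO library was below the WT libraries of its own run, but the groups overlapped across runs, since Eed KO 385_2 was just above WT 440_1. The decrease was -0.55 log2 in run 385 and -1.79 in run 440. The log2 fold change over both runs was -0.95 ± 0.29 (edgeR, adjusted p = 0.0459), a call kept in 7 of 16 alternatives. It was -0.63 ± 0.26 without Eed KO 440_1 (edgeR, adjusted p = 0.096), -0.58 ± 0.17 in run 385 alone (edgeR, adjusted p = 0.0369) and -0.72 ± 0.16 with the GC correction (edgeR, adjusted p = 0.00864). Suz12 is the third lowest of the members in transcript GC content, at 41.6%.

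**Figure D2:**
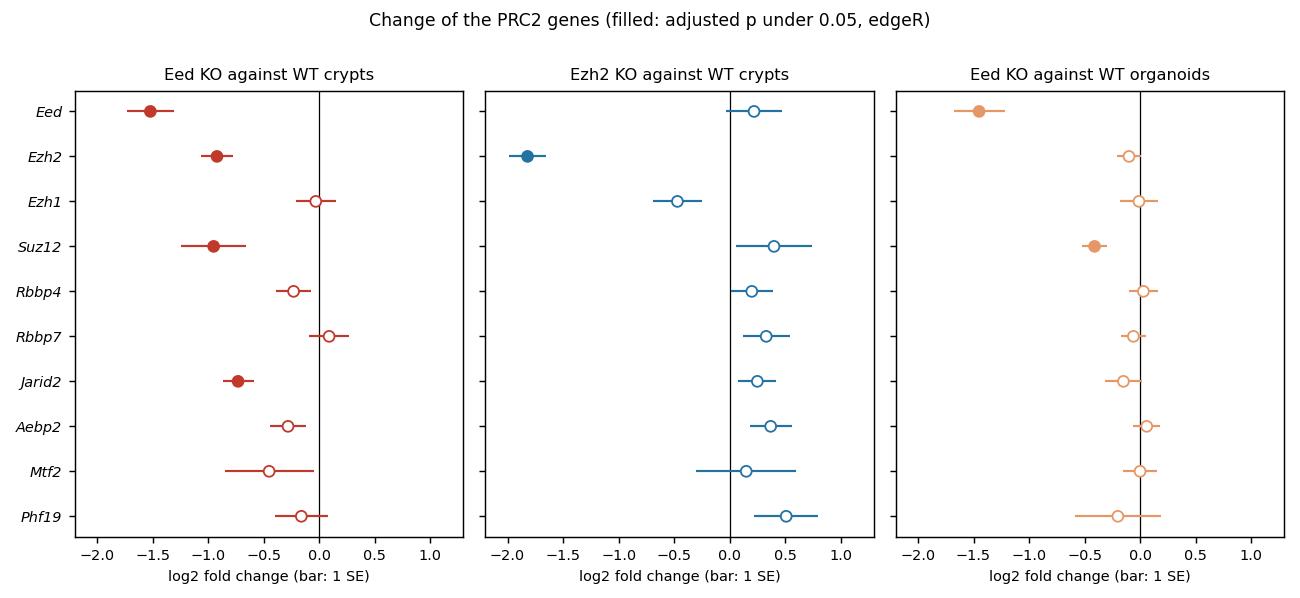
Log2 fold change of the 10 PRC2 genes in 3 comparisons, with bars of 1 SE and filled points where edgeR's adjusted p is under 0.05. Eed KO crypts have 4 filled points, all on the lower side, Ezh2 KO crypts have 1 (Ezh2, -1.82) and Eed KO organoids have 2 (Eed, -1.45, and Suz12, -0.41). The 2 crypt comparisons share their WT libraries.

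The remaining core members did not pass the test in Eed KO crypts. Ezh1 (ENSMUSG00000006920, chr11:101191115-101226463, minus strand), the paralog of Ezh2, had 57.0, 61.9 and 54.1 CPM in WT crypts, 54.6, 49.2 and 65.7 in Eed KO and 52.9, 35.5 and 43.6 in Ezh2 KO. Eed KO libraries spread around the WT range, while all 3 Ezh2 KO libraries were below it. The log2 fold change was -0.03 ± 0.18 in Eed KO (edgeR, adjusted p = 0.922) and -0.47 ± 0.22 in Ezh2 KO (edgeR, adjusted p = 0.614), so no rise of Ezh1 was detected where Ezh2 was lost. Rbbp4 had a log2 fold change of -0.23 ± 0.16 and the X-linked Rbbp7 of 0.09 ± 0.18 in Eed KO crypts (edgeR, adjusted p = 0.339 and 0.741). Rbbp4 (chr4:129307100-129335370) and Rbbp7 (chrX:162760402-162779092) also serve in other chromatin complexes, and their WT crypts held 222.3 to 250.3 and 241.8 to 280.6 CPM. Eed KO crypts held 189.7 to 211.3 CPM of Rbbp4, below all WT crypts, and 237.4 to 314.9 CPM of Rbbp7, which overlaps WT.

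Of the accessory genes other than Jarid2, none was called in Eed KO crypts. Aebp2 (chr6:140622449-140678472), the zinc finger partner of JARID2 in PRC2.2, had 87.5, 85.6 and 55.0 CPM in WT and 81.8, 66.9 and 40.9 in Eed KO, with a log2 fold change of -0.28 ± 0.16 (edgeR, adjusted p = 0.235). Mtf2 (chr5:108065674-108109004), a Polycomb-like subunit that leads PRC2.1 to CpG-rich DNA, had 42.9, 53.1 and 39.6 CPM in WT and 41.0, 64.9 and 11.9 in Eed KO. The Eed KO libraries of run 385 lay on either side of the WT libraries, and that of run 440 was the lowest of the series, at 30.1% of WT. Its log2 difference was 0.14 in run 385 and -1.73 in run 440, and the fit gave -0.45 ± 0.40 (edgeR, adjusted p = 0.468) or -0.21 ± 0.17 with the GC correction (edgeR, adjusted p = 0.424). Mtf2 has the lowest transcript GC content of the members, 38.2%. Phf19 (chr2:34893757-34914026), a second Polycomb-like subunit, had 5.78, 3.85 and 6.86 CPM in WT and 4.61, 3.81 and 6.34 in Eed KO (-0.16 ± 0.24, edgeR, adjusted p = 0.676).

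**Figure D3:**
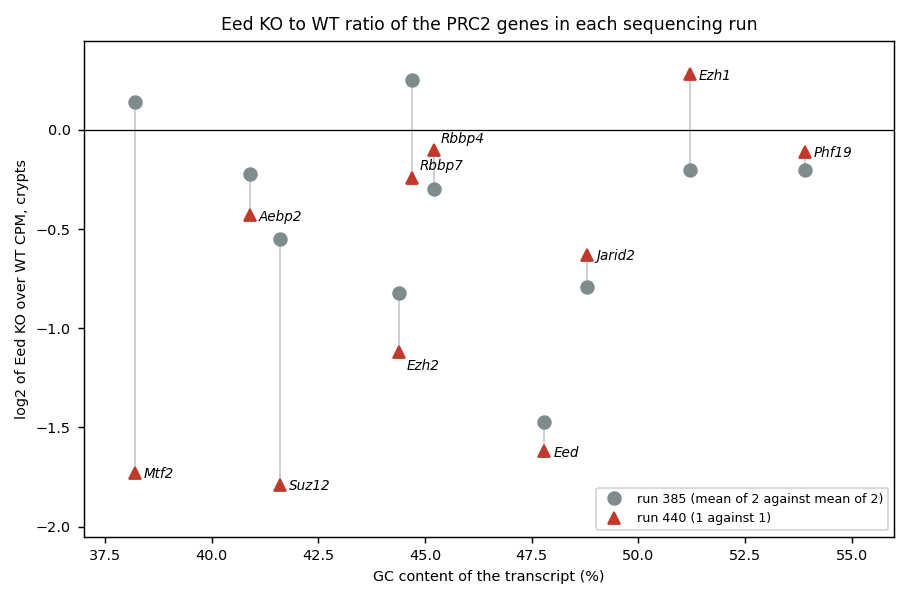
Log2 ratio of Eed KO to WT crypt CPM within each run (vertical axis) against the GC content of the transcript in percent (horizontal axis) for the 10 PRC2 genes, with a grey line joining the 2 runs. Mtf2 (38.2% GC) moves from 0.14 to -1.73 and Suz12 (41.6%) from -0.55 to -1.79 between runs, while Eed, Ezh2 and Jarid2 are low in both.

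In Ezh2 KO crypts the members other than Ezh2 had log2 fold changes from -0.47 (Ezh1) to 0.51 (Phf19), and none was called. Phf19 had 9.87, 10.9 and 9.27 CPM in Ezh2 KO. Every Ezh2 KO library was above every WT library, but the log2 fold change of 0.51 ± 0.29 did not pass the test (edgeR, adjusted p = 0.658), in a comparison where the 2 groups did not overlap for 20% of all genes. The Ezh2 KO comparison has 1 WT library in its own run. The effect of run is estimated from WT and Eed KO crypts, and Eed KO 440_1, with the GC trend, is among them. Mtf2 was fitted at 0.15 ± 0.45, although its Ezh2 KO libraries held 21.6 to 39.4 CPM against 39.6 to 53.1 in WT. With the GC correction Mtf2 was at -0.11, Suz12 at 0.10 instead of 0.40 and Aebp2 at 0.04 instead of 0.37. Compared directly, Eed KO crypts were lower than Ezh2 KO crypts in Eed, Jarid2, Suz12 and Aebp2 and higher in Ezh2, that is 5 of 10 members. Eed and Ezh2 are the deleted genes, so their differences came with the design. Of all genes, 8.05% were called lower and 20% in either direction. Suz12 differed by -1.35 ± 0.38 (edgeR, adjusted p = 0.0391) and Aebp2 by -0.66 ± 0.20 (edgeR, adjusted p = 0.0471). Neither call held without Eed KO 440_1 (-0.72 and -0.64, edgeR, adjusted p = 0.247 and 0.182). With the GC correction Suz12 differed by -0.82 ± 0.20 (edgeR, adjusted p = 0.0191) and Aebp2 by -0.06 ± 0.25 (edgeR, adjusted p = 0.888).

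The ratio of the 2 enzymes was described without a test. Ezh1 divided by Ezh2, each per kilobase, was 0.564, 0.583 and 0.673 in WT crypts, so Ezh2 was the more abundant. It was 0.941, 0.832 and 1.77 in Eed KO and 2.18, 1.80 and 2.18 in Ezh2 KO, where Ezh1 was the more abundant in every library. The 3 crypt groups did not overlap. In organoids the ratio was 0.331 and 0.364 in WT and 0.304 and 0.443 in Eed KO, which overlap and lie below all crypts. Taken per kilobase of the longest transcript instead, the mean ratio was 0.448 in WT and 1.51 in Ezh2 KO crypts. The shift in Ezh2 KO came with lower Ezh2, while Ezh1 was not higher in any Ezh2 KO library than in its WT libraries.

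**Figure D4:**
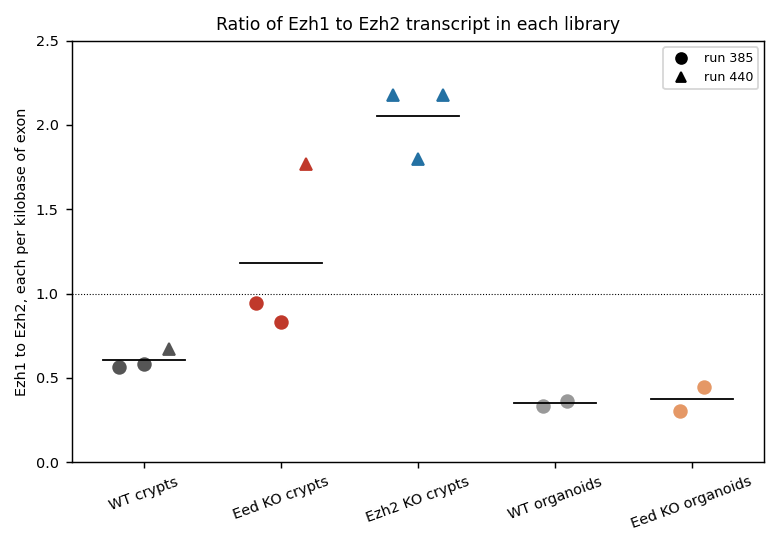
Ratio of Ezh1 to Ezh2 transcript, each per kilobase of exon, in every library (linear axis from 0, bars are group means, dotted line at equal levels). WT crypts sit between 0.564 and 0.673, Ezh2 KO crypts between 1.80 and 2.18, and all 4 organoid libraries at or below 0.443.

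In organoids, loss of Eed went with lower Suz12 but not detectably lower Ezh2. The members called were Eed, which is the deleted gene, and Suz12, both lower. Of 12958 genes, 4.63% were called lower and 18.2% in either direction. Suz12 had 229.1 and 232.4 CPM in WT and 177.7 and 169.4 in Eed KO organoids. The pairs did not overlap, as they did not for 59.2% of all genes in this 2 against 2 design, and Eed KO held 77% and 73.4% of WT. The fit gave a log2 fold change of -0.41 ± 0.11 (edgeR, adjusted p = 0.0401), a call lost without any 1 of the 4 libraries (edgeR, adjusted p from 0.0733 to 0.171) and with the GC correction (-0.37, edgeR, adjusted p = 0.0566). Ezh2 was at 105.9 and 105.8 CPM in WT and 104.1 and 93.5 in Eed KO (-0.10 ± 0.11, edgeR, adjusted p = 0.616). Jarid2 was at 51.8 and 62.6 CPM in WT and 45.8 and 57.4 in Eed KO (-0.15 ± 0.17, edgeR, adjusted p = 0.624). The other members had log2 fold changes between -0.20 and 0.06. Strain background, sex pattern and genotype cannot be told apart in the organoids.

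The test of the difference itself gave 1 member. The Eed KO effect on Ezh2 was lower in crypts than in organoids by -0.82 ± 0.20 log2 (edgeR interaction term, adjusted p = 0.041), where 2.99% of 14761 genes were called lower, 4.12% were called in either direction and the median of all genes was -0.14. The call was kept in 2 of 16 alternatives, DESeq2 (adjusted p = 0.00581) and run 385 alone (edgeR, adjusted p = 0.0413). In run 385 Eed KO and WT differ in sex pattern, in opposite directions in crypts and organoids. Sex pattern and the difference of effects thus cannot be told apart in that run, nor can strain background in organoids. Values ran from -0.90 to -0.70 with adjusted p up to 0.162, and the call was lost without any 1 of the libraries of these 4 groups. For Jarid2 the difference was -0.59 ± 0.22 (edgeR, adjusted p = 0.176) and for Suz12 -0.55 ± 0.40 (edgeR, adjusted p = 0.575), neither called.

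In WT tissue, organoids had less Jarid2 than crypts by -0.57 ± 0.16 log2 (edgeR, adjusted p = 0.0245). This was 1 member of 10, where 18.9% of 14761 genes were called lower, 28.1% in either direction and the median of all genes was -0.13. The call was lost without WT crypts 385_1, WT crypts 385_2 or WT organoids 385_1 (edgeR, adjusted p = 0.156, 0.106 and 0.213). Ezh1 was lower by -0.46 ± 0.20 and not called (edgeR, adjusted p = 0.12), and in run 385 alone Ezh1 was lower (-0.54, edgeR, adjusted p = 0.0321) and Suz12 higher (0.53, edgeR, adjusted p = 0.0117). The other members differed by -0.09 to 0.32 log2. Cell-type markers differed widely in the same comparison: 8 of 10 enterocyte markers were higher in organoids (median 3.24 log2), and 5 of 6 Paneth, 5 of 6 goblet and 6 of 6 tuft cell markers and 10 of 10 immune markers were lower. Their part in the Jarid2 difference was not tested. WT organoids are FVB and WT crypts C57BL/6-FVB, and in run 385 they have opposite sex patterns. Strain background and tissue thus cannot be told apart here, nor can sex pattern in run 385 alone.

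A list of 32 genes of dividing cells was low in the Eed KO crypts, as Ezh2 was. In Eed KO crypts 26 of 32 were lower and none higher, where 10.6% of all genes were called lower, with a median log2 fold change of -1.0, and their summed level was 1776 to 2158 CPM against 4353 to 4658 CPM in WT. The count was 27 without Eed KO 440_1, 27 with the GC correction and 9 in run 440 alone. Mki67, a marker of cycling cells, had 682.1, 741.9 and 475.4 CPM in WT and 279.1, 264.3 and 56.5 in Eed KO (-1.93 ± 0.41, edgeR, adjusted p = 0.00957). In Ezh2 KO crypts none of the 32 was called, in a comparison with 0.0208% of all genes called, and the sum was 4494 to 5561 CPM, which overlaps WT. In Eed KO organoids 2 of 32 were lower (4.63% of all genes), with a sum of 4251 to 4689 CPM against 4983 to 5012 in WT, and Mki67 was at 584.3 and 615.4 against 641.5 and 552 CPM. The part of the dividing-cell level in the lower Ezh2 of Eed KO crypts was not tested. The list of 14 E2F factors and pocket proteins had 9 lower in Eed KO crypts, 0 in Ezh2 KO crypts and 5 in Eed KO organoids, none higher. In crypts these included E2f8 (-1.57 ± 0.39), Rbl1 (-1.39 ± 0.20) and E2f7 (-1.29 ± 0.26), and in organoids E2f2 (-0.90 ± 0.16) and E2f8 (-0.64 ± 0.12).

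**Figure D5:**
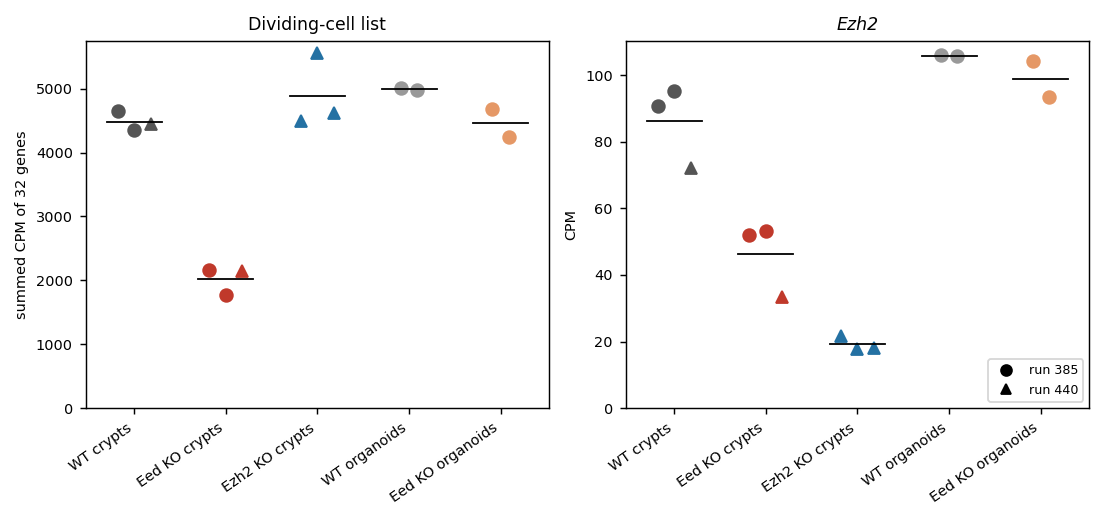
Summed CPM of the 32 dividing-cell genes (left) and CPM of Ezh2 (right) in each library, both axes from 0, circles for run 385, triangles for run 440, bars for group means. Eed KO crypts are low in both panels, Ezh2 KO crypts are low only for Ezh2, and Eed KO organoids (4251 to 4689 summed CPM) are below WT organoids (4983 to 5012).

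Among 5 further partners of PRC2 listed with the members, 4 could be tested in crypts. Epop, which joins Polycomb-like proteins in PRC2.1 and links the complex to elongin, was the 1 that rose in Eed KO crypts. Of all genes, 13.4% were called higher there. It had 0.801, 0.458 and 1.35 CPM in WT crypts and 14.1, 6.34 and 9.40 CPM in Eed KO, with 2.69, 3.87 and 4.35 in Ezh2 KO. All knockout libraries were above all WT libraries, and Ezh2 KO and WT did not overlap for 20% of all genes. At most 1.35 CPM in WT crypts is near the floor, so Epop passes the filter mostly through the other groups. The size of its fold changes from WT crypts, and of the interaction, is thus uncertain. The log2 fold change was 3.53 ± 0.47 in Eed KO (edgeR, adjusted p = 0.00112) and 1.81 ± 0.53 in Ezh2 KO (edgeR, adjusted p = 0.579, not called), and Eed KO was above Ezh2 KO by 1.72 ± 0.51 (edgeR, adjusted p = 0.0435). WT organoids already held 9.32 and 15.0 CPM, 3.89 ± 0.48 log2 above WT crypts (edgeR, adjusted p = 0.000194), and Eed KO organoids held 17.1 and 15.4 CPM (0.42 ± 0.25, edgeR, adjusted p = 0.327). The Eed KO effect on Epop was larger in crypts by 3.09 ± 0.60 (edgeR interaction term, adjusted p = 0.0191). Phf1, the other Polycomb-like gene, was at 16.3 to 21.4 CPM in WT crypts and 25.7 to 31.8 in Eed KO (0.58 ± 0.25, edgeR, adjusted p = 0.131), and lower in WT organoids than in WT crypts (-1.49 ± 0.29, edgeR, adjusted p = 0.00339). As above, strain background and tissue cannot be told apart between WT organoids and WT crypts.

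The enzymes that remove the mark and the complexes that share subunits were counted next. Of the H3K27 demethylases, Kdm6a (-0.09 ± 0.35) and Kdm6b (0.61 ± 0.35) did not pass in Eed KO crypts (edgeR, adjusted p = 0.879 and 0.255). Kdm6a, which is X-linked, was lower in Eed KO organoids, at 65.2 and 58.0 against 107.6 and 98.0 CPM (-0.74 ± 0.12, edgeR, adjusted p = 0.00651), and its Y-linked relative Uty was at 32.9 and 28.7 CPM there against 0.226 and 0 in WT. These organoids have opposite sex patterns. Of 24 tested partners that Rbbp4 and Rbbp7 have outside PRC2, 4 were lower in Eed KO crypts and none higher, where 10.6% of all genes were called lower. They were Chaf1a (-0.99 ± 0.23) and Chaf1b (-0.89 ± 0.20) of the chromatin assembly factor, and Lin9 (-1.09 ± 0.26) and Lin54 (-1.18 ± 0.20) of the MuvB core. With the GC correction 4 were lower and 1 higher, and without Eed KO 440_1 these numbers were 6 and 1 of 25. None of the 24 was called in Ezh2 KO crypts, where 0.0208% of all genes were. Chd3 was higher in Eed KO organoids (1.10 ± 0.15), where 13.5% of all genes were called higher. Among PRC1 genes, Cbx6 (2.66 ± 0.39), Bmi1 (1.11 ± 0.35) and Cbx8 (0.72 ± 0.18) were higher in Eed KO crypts, where 13.4% of all genes were called higher. By edgeR none of the PRC1 list was called in Ezh2 KO crypts, where 0.0208% of all genes were. DESeq2 called 1 of the list higher there, and 0.472% of all genes in either direction. Without Eed KO 440_1, 2 PRC1 genes were lower in Eed KO crypts, where none was lower with it. Of 5 H3K36 methyltransferases, whose mark hinders PRC2, Nsd2 (-1.03 ± 0.14) and Nsd3 (-0.41 ± 0.12) were lower in Eed KO crypts, as 10.6% of all genes were. Without Eed KO 440_1, 1 of the 5 was lower.

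Known targets of the complex were counted beside these levels. Of 35 Hox genes tested, 33 were higher in Eed KO crypts, where 13.4% of all genes were called higher. In Ezh2 KO crypts none was called, as for nearly all genes (0.0208% called). In Eed KO organoids 25 of 29 tested were higher, where 13.5% of all genes were. Genes at or near 0 in WT pass the filter mostly through the knockout, so these counts describe the lists only. Cdkn2a, a cell cycle inhibitor silenced by PRC2, was at 52.4, 60.7 and 62.9 CPM in Eed KO crypts, at most 0.0890 in WT crypts and at most 0.0630 in Ezh2 KO crypts. Eed KO organoids held 54.3 and 46.1 CPM of Cdkn2a against 0.677 and 0.514 in WT organoids.

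Genes whose pattern over the 13 libraries was most like a member's were named by the root mean square difference of centred log2 CPM among 14760 genes. The libraries share 2 runs and the GC trend, so the values describe the patterns only. For Suz12 they were Usp1 (0.12), Pkn2 (0.13) and Ttc3 (0.14), and the nearest member was Mtf2 (0.34). For Ezh1 they were Slc37a1 (0.10), Zfp865 (0.11) and Mink1 (0.12). For Eed they were Snx7 (0.27), Zdhhc2 (0.31) and 1110020A21Rik (0.32), and for Ezh2 Ces1b (0.47), Mterf2 (0.48) and 4933421A08Rik (0.49). The smallest difference was thus larger for the deleted genes, Eed and Ezh2, than for Suz12 and Ezh1.

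Exons of Eed, Ezh2, Suz12, Rbbp4, Rbbp7 and Mtf2 overlap exons of another gene on the opposite strand in GENCODE M21. Libraries were strand-specific, but no source used here states whether counting used the strand, so such reads cannot be told apart.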

How the data were processed

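The 13 libraries were grouped by their titles. Per the labels' protocols, RNA was extracted with TRIzol and made into strand-specific polyadenylated libraries. Raw read counts by gene were deposited by the authors, with 1 table for each run (23969 and 22634 genes). Per the submitters' processing notes, reads were handled on build GRCm38 with tools that included TopHat2 2.0.12, Bowtie 0.12.9, HTSeq and DESeq2. From the deposited counts of the 21420 shared identifiers, edgeR 4.0.16 in R 4.3.3 was run with TMM scaling, its low-count filter (minimum count 10, minimum total 15), robust quasi-likelihood F tests and Benjamini-Hochberg adjustment over all genes tested, with a threshold of 0.05. The 9 crypt libraries were fitted together with run as a term (14406 genes, 5 residual degrees of freedom), the organoids alone (12958 genes, 2 degrees of freedom), and all 13 for the interaction and for WT organoids against WT crypts (14761 genes, 7 degrees of freedom). SE came from the F statistic. Levels are CPM on TMM library sizes. The GC correction, added after the data were seen, subtracts from each library the trend of its deviations over 20 bins of transcript GC content. GC content was known for 99.5% of the genes tested. DESeq2 1.42.0, other scaling, no filter, single runs, a replicate block and leaving out each library were alternatives.

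Whether libraries of a group stem from different animals or cultures is not in the labels, so the spread behind each p-value may be technical. No replicate pair agreed within sampling noise (chi-square per gene at least 12.4). The members and lists were chosen with earlier results of these data known. Every member called in the main fit is named in each comparison. Members not called are in part given only within a range or a count. From other lists at most the 4 called genes with the largest change are named, beside Phf1, Kdm6a, Kdm6b, Cdkn2a and Mki67. 1 gene of the PRC1 list is not reported here. Promoter windows are from RefSeq (GRCm38.p6), and all 10 genes matched. Gene positions are those of the deposited tables (GRCm38), and strand and exon lengths those of GENCODE M21. No genome or protein sequence was used here.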

Additional observations from a re-analysis of the deposited data

Results flagged for a closer look

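In the main fit the effect of Eed loss on Ezh2 differed between tissues. Eed KO and WT of run 385 differ in sex pattern, in opposite directions in crypts and organoids. Sex pattern, strain background of the organoids and the difference of effects cannot be told apart there. The log2 fold change was lower in crypts than in organoids by -0.82 ± 0.20 (edgeR interaction term, adjusted p = 0.041). Eed KO crypts were at 56%, 57% and 46.1% of the WT level of their run, and Eed KO organoids at 98.3% and 88.3% of the WT mean. The call was kept in 2 of 16 alternatives. Dividing-cell genes moved the same way in the same samples (7 of 32 passed the same interaction test, all lower, against 2.99% of all genes). That count was 13 without Eed KO crypts 440_1, 12 with the GC correction, 15 in run 385 alone and 14 with DESeq2. Their part in the Ezh2 difference was not tested.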

How the results depend on the processing

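Eed was called in every alternative run of Eed KO against WT crypts, Ezh2 KO crypts and WT organoids. The number of members called in Eed KO against WT crypts was 1 instead of 4 in run 440 alone, where WT and Eed KO have 1 library each and are assumed to vary like the Ezh2 KO libraries, and 2 with the replicate block, where Suz12 and Jarid2 (edgeR, adjusted p = 0.111 and 0.0509) were lost. For Ezh2 KO against WT it was 0 instead of 1 in run 440 alone, and 0 to 1 when 1 library was left out. For Eed KO against Ezh2 KO it was 3 to 4 instead of 5 when 1 library was left out, and Aebp2 reversed to 0.21 in run 440 alone with the GC correction. In organoids it was 1 instead of 2 with the GC correction and when any 1 library was left out, which leaves a lone library assumed to vary like the others. The interaction gave 0 instead of 1 with DESeq2 size factors, with no filter, with the replicate block, with the GC correction and without any 1 library. WT organoids against crypts gave 3 instead of 1 in run 385 alone, and 0 to 1 when 1 library was left out. On the longest transcript the Ezh1 to Ezh2 ratio was 0.448 in WT crypts, 1.51 in Ezh2 KO crypts and 0.256 in WT organoids, against 0.607, 2.05 and 0.347. The cause of these changes was not tested. Lower dividing-cell genes numbered 9 and lower E2F and pocket genes 1 in run 440 alone.

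Replicate numbers recur across groups, but deviations of same-numbered libraries correlated by 0.14 in crypts and 0.26 in organoids over 2 pairs each, so the numbers were not taken as a pairing. With the replicate block and the GC correction together, 4 members were called in Eed KO against WT crypts. No paired analysis was possible for the Ezh2 KO comparisons because Ezh2 KO shares 1 replicate number with each other crypt group. Phf19, at a few CPM, is the member whose precision depth limits most.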
